A study of Mus musculus with 4 samples.

Results

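Binding sites of the orphan nuclear receptor NR6A1 were examined at 3 loci of transforming growth factor beta (TGF-beta) signalling in mouse mesenchymal stem cells, namely Tgfbr2, Smad3 and Smad7. A site counted as a member when the midpoint of a deposited peak lay in a fixed window on the mouse build mm9. The windows were chr9:115940000-116140000 for Tgfbr2, chr9:63440000-63660000 for Smad3 and chr18:75480000-75600000 for Smad7. This gave 24 of 21507 peaks in replicate 1 and 23 of 16160 peaks in replicate 2, or 47 of 37667 in all.

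The peaks came from chromatin immunoprecipitation followed by sequencing, in which fragments bound by a tagged protein are recovered with an antibody and mapped. The series has 4 libraries from immortalized, monoclonal Dicer f/f mesenchymal stem cells of strain C57BL/6, selected with puromycin. Dicer f/f means that the Dicer alleles carry recombination sites but are intact, and the labels call these cells Dicer wild type. In 2 libraries the cells expressed Flag-HA-NR6A1 from the retrovirus pMMP-puro, and in 2 they carried the empty vector of that virus. All 4 were fixed with formaldehyde for 10 min and precipitated with 5 µg of an antibody to the HA tag. The bound protein is thus a retrovirally supplied, tagged receptor and not the receptor of the cell's own gene. Peak lists of both NR6A1 replicates were used, and values of the vector libraries were not analysed here. Peak lists hold no expression values, so the cell type is that of the labels. The labels do not say whether the replicates were separate cultures, so the spread between them may be technical. With 1 list for each replicate and no vector values, no test of binding was possible, and all values are descriptions.

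TGF-beta ligands bind the receptor encoded by Tgfbr2, a serine and threonine kinase that recruits and phosphorylates a type I receptor. The type I receptor then phosphorylates SMAD3 and its relative SMAD2, which enter the nucleus with SMAD4 and regulate genes for matrix production and cell fate in mesenchymal cells. Smad7 encodes an inhibitory SMAD that blocks the type I receptor and is itself a target of the pathway, which makes it a feedback inhibitor. NR6A1, also called germ cell nuclear factor, is known for binding direct repeats of the core motif AGGTCA without a spacer and for repressing transcription.

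The promoters of Tgfbr2 and Smad3 are shown because they are the starts of genes for which windows were drawn, and the promoter of Smad7 was not analysed here. They are the 250 bases before the gene start in the RefSeq promoter table, on build GRCm38.p6 at chr9:116175364-116175613 for Tgfbr2 and chr9:63757995-63758244 for Smad3, both on the minus strand. Capitals mark CpG dinucleotides.
Tgfbr2: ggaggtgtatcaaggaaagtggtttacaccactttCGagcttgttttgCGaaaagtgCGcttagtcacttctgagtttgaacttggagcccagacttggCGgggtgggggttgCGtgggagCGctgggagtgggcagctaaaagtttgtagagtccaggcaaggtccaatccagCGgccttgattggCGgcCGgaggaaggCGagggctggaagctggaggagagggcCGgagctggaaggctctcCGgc
Smad3: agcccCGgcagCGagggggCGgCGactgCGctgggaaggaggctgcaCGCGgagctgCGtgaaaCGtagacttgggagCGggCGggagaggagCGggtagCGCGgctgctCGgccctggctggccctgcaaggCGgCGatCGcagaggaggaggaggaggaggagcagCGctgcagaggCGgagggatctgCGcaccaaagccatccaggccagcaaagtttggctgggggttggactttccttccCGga
The Tgfbr2 stretch held 12 CpG dinucleotides and the Smad3 stretch 22, against a median of 6 (quartiles 2 and 16) over 32851 promoters. Motifs were searched over the full table length of every promoter, not only the 250 bases shown. Neither promoter held the core motif AGGTCA on either strand, which 16.3% of all promoters held. The longer forms, the core preceded by TCA (TCAAGGTCA) and the direct repeat without spacer (AGGTCAAGGTCA), both contain the core and were therefore absent too. They occurred in 0.423% and 0.00609% of all promoters. Of 29 TGF-beta pathway genes listed, 18 had an entry, and 2 of these, Tgif1 and Zfyve9, had a promoter with the core motif. The promoters are on another build than the peaks, so no peak was placed on these stretches.

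At Tgfbr2, NR6A1 peaks were few, and a single site was found in both replicates. Replicate 1 had 1 peak in the 200 kb window and replicate 2 had 3. Of these, 1 in each replicate had a partner, meaning a peak of the other list that overlaps it by at least 1 bp, which 42.7% of all replicate 1 peaks and 56% of all replicate 2 peaks had. The shared site lay at chr9:116084195-116084837 in replicate 1, where its score was 412.19, and at chr9:116084115-116084959 in replicate 2, where its score was 1176.48. The score is the authors' value for each peak and was read as a log-transformed p-value of MACS, so that a higher score means a smaller p-value. Scores move with sequencing depth and background, and the depth of these libraries is unknown from the lists. Scores were therefore also given as percentiles of their own list, from 0 for the lowest to 100 for the highest. On that scale the shared Tgfbr2 site was at 49.4 in replicate 1 and at 89.3 in replicate 2, so it was a middling peak in one list and a strong peak in the other. The partner peaks agreed closely in position, with midpoints 21.0 bp apart, and the replicate 1 peak lay wholly within the wider replicate 2 peak (643 and 845 bp).

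The other 2 Tgfbr2 peaks were in replicate 2 only. One lay at chr9:116061856-116062426 with a score of 439.95, and its midpoint was 22.4 kb from the nearest replicate 1 peak. The other lay at chr9:115959024-115959476 with a score of 256.88, and its midpoint was 125 kb from the nearest replicate 1 peak. Each of the 3 Tgfbr2 sites stood alone: no gap between them was as short as 10 kb. Outside the window, the nearest replicate 1 peaks were 112 kb beyond its right edge and 794 kb beyond its left edge. The nearest replicate 2 peaks were 11.5 kb beyond the right edge and 720 kb beyond the left edge. In the gene table of build GRCm38.p6 the protein-coding neighbours of Tgfbr2 are Gadl1 and Rbms3.

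**Figure D1:**
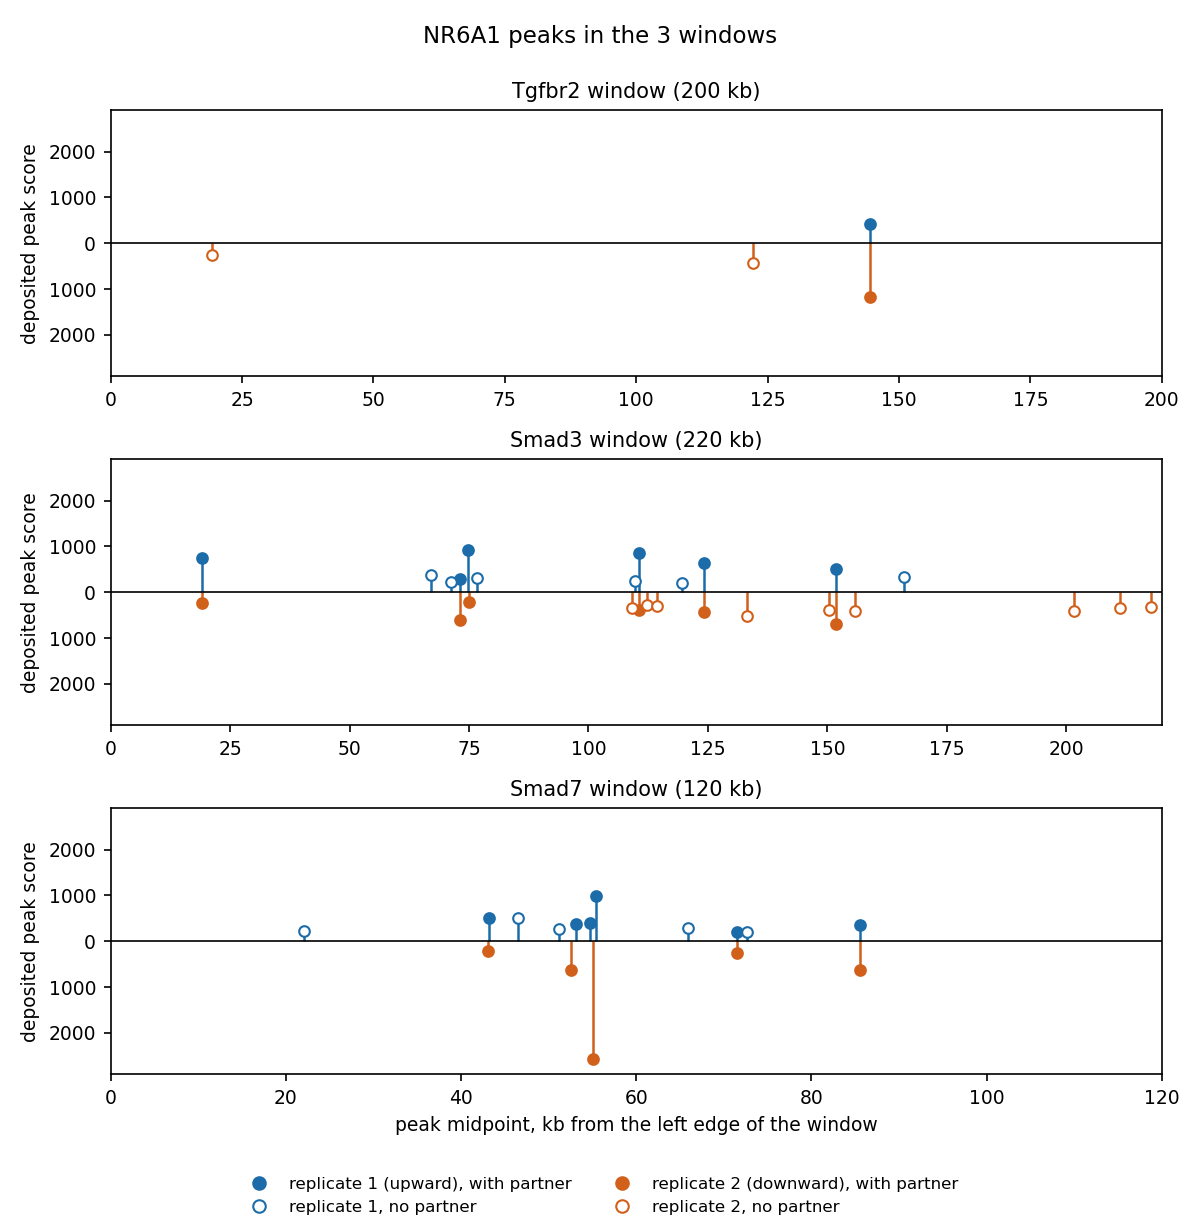
Deposited peak scores against peak midpoints in kb from the left edge of each window, for replicate 1 (blue, upward) and replicate 2 (orange, downward). Filled points have a partner in the other list and open points have none. The Tgfbr2 window holds 1 and 3 peaks, the Smad3 window 12 and 15, and the Smad7 window 11 and 5, with the highest score of 2573.29 at Smad7 in replicate 2.

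At Smad3, the gene of the signal-transducing SMAD, NR6A1 peaks were many, and their scores ranged from the lowest to the upper part of the lists. The 220 kb window held 12 peaks in replicate 1 and 15 in replicate 2, which fell on 21 regions. Of these, 6 were in both lists, 6 in replicate 1 only and 9 in replicate 2 only. Smad3 regions found in both lists made up 28.6%, against 31.7% of the 28444 regions of the whole series. No Smad3 peak reached a score of 1000, which 15.9% of all replicate 1 peaks and 14% of all replicate 2 peaks did. Scores ran from 201.19 to 929.2 in replicate 1 (median 362) and from 203.59 to 682.64 in replicate 2 (median 381). The medians stood at percentiles 41.8 and 48.3 of their lists.

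The 6 shared Smad3 sites differed between replicates in which of them scored high. The site at chr9:63514109-63515283 had the highest Smad3 score of replicate 1, 929.2, and its partner in replicate 2 had the lowest Smad3 score of that list, 203.59. In percentiles it stood at 82.0 in replicate 1 and at 1.45 in replicate 2. The site at chr9:63458776-63459641 showed the same direction, with 750.18 in replicate 1 and 242.7 in replicate 2. So did the site at chr9:63550187-63550913, with 858.92 and 392.83 in replicates 1 and 2. The opposite held at chr9:63591607-63592200, where the score was 501.66 in replicate 1 and 682.64 in replicate 2, the highest Smad3 score of that list. It also held at chr9:63512860-63513325, with 281.84 and 613.83 in replicates 1 and 2. At chr9:63563859-63564401 the scores were 633.05 and 439.95, and in percentiles, 69.3 and 55.9, this was the closest of the Smad3 pairs. Replicate 1 thus had the higher score at 4 of 6 shared Smad3 sites, against 49.7% of all pairs. The midpoints of the 6 pairs were between 38.0 and 241 bp apart, against a median of 37.5 bp over all pairs.

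Smad3 regions were placed in groups by the gaps between them. Joining regions with gaps of at most 10 kb gave 5 groups, of which 4 held 3 regions or more. With gaps of at most 5 kb there were 9 groups. Where a window holds many peaks, such groups follow in part from the gap chosen. Groups were not counted over the whole series. The group at chr9:63506685-63516827 held 5 regions within 10.1 kb, with 5 peaks in replicate 1 and 2 in replicate 2. The group at chr9:63548827-63573565 held 8 regions within 24.7 kb, with 4 peaks in replicate 1 and 6 in replicate 2. Another group at chr9:63590109-63606276 held 4 regions within 16.2 kb, with 2 peaks in replicate 1 and 3 in replicate 2. In these 3 groups both replicates had peaks and at least 1 region was shared. Inside the window, the group at chr9:63641380-63658161 held 3 peaks of replicate 2 and none of replicate 1. Their scores were 419.74, 335.11 and 332.4. The nearest replicate 1 peak, at chr9:63665925-63666414 with a score of 285.46, lay just outside the window, 6.17 kb past its right edge. It starts less than 10 kb after the group ends. Only regions inside the window were joined, so the absence of replicate 1 from this group depends on the window edge. On the left, the nearest peaks outside the window were 193 kb from it in replicate 1 and 192 kb in replicate 2. The remaining group was the single shared site at chr9:63458776-63459641.

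Peaks without a partner at Smad3 often had a peak of the other list close by. Of 6 such peaks in replicate 1, 5 had a replicate 2 midpoint within 10 kb, and of 9 in replicate 2, 7 had a replicate 1 midpoint within 10 kb. Over all peaks without a partner this held for 26.6% in replicate 1 and 36.1% in replicate 2. Such shares rise with the number of peaks in a window, so they follow in part from the Smad3 counts. The closest case was a replicate 1 peak at chr9:63549607-63550019 and a replicate 2 peak at chr9:63548827-63549324, with midpoints 0.738 kb apart and no overlap. The unpartnered peak with the highest score at Smad3 was in replicate 2 at chr9:63572956-63573565, with 508.24. The protein-coding neighbours of Smad3 in the gene table are Aagab and Smad6, and Smad6 encodes another inhibitory SMAD. Whether any peak lies in a neighbour was not analysed here, since the table is of another build.

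At Smad7, the gene of the feedback inhibitor, NR6A1 peaks were packed most tightly in replicate 1. All 5 replicate 2 peaks overlapped a replicate 1 peak, which 56% of the whole replicate 2 list did. The 120 kb window held 11 peaks in replicate 1 and 5 in replicate 2. With both lists cut to equal size by score, replicate 1 had 7. The peaks of the full lists fell on 10 regions, of which 5 were in both lists, 5 in replicate 1 only and none in replicate 2 only. The shared regions made up 50% of the 10, against 31.7% in the whole series. When partners had to overlap by 50% of each peak, 3 regions were shared, and when their midpoints had to be within 100 bp, 2 were. The whole series was not recomputed under these rules, so the comparison with 31.7% holds only for partners that overlap by at least 1 bp. Replicate 1 scores ran from 205.16 to 994.69 (median 360) and replicate 2 scores from 217.56 to 2573.29 (median 623). The medians stood at percentiles 41.7 and 71.6 of their lists.

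The strongest site of the 3 loci was at Smad7. In replicate 2 it was a single peak at chr18:75534389-75535746, which was 1358 bp wide with a score of 2573.29, ranked 351 of 16160 and at percentile 97.8. In replicate 1 the same stretch was given as 2 peaks. That at chr18:75535049-75535659 had a score of 994.69, the highest of the 3 loci in that list, at percentile 83.9. That at chr18:75534385-75534967 had a score of 392.79, at percentile 46.7. Both replicate 1 peaks lay almost wholly under the replicate 2 peak, with overlaps of 611 of 611 bp and 579 of 583 bp. In both replicates the highest score of the Smad7 window was thus at this stretch.

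The other 4 shared Smad7 sites had lower scores. At chr18:75565233-75565791 the scores were 360.35 in replicate 1 and 622.67 in replicate 2, and the midpoints were 11.0 bp apart. At chr18:75551298-75551766 they were 205.16 and 254.68, at percentiles 1.71 and 20.7 of their lists, with midpoints 19.0 bp apart. These pairs agreed closely in position. At chr18:75532652-75533680 the scores were 377.09 and 632.33, but the peaks overlapped by 525 bp only, with midpoints 580 bp apart. At chr18:75522863-75523433 replicate 1 had the higher score, 503.65, against 217.56 in replicate 2. Replicate 2 had the higher score in 5 of the 6 Smad7 pairs, against 49.8% of all pairs. The 5 count both replicate 1 peaks under the strongest site, which share a replicate 2 peak.

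Most Smad7 regions lay in 1 group at chr18:75522705-75552873, which held 8 of the 10 regions within 30.2 kb, with 9 peaks in replicate 1 and 4 in replicate 2. The window held 3 such groups, single regions included, and 5 with gaps of at most 5 kb. As at Smad3, the groups follow in part from the gap chosen. The 5 regions of replicate 1 only had scores from 207.79 to 513.63, the highest at chr18:75526083-75526909. Of these, 4 had a replicate 2 midpoint within 10 kb, against 26.6% of all replicate 1 peaks without a partner. The exception was the site at chr18:75501744-75502319, which was 21.0 kb from the nearest replicate 2 peak and had a score of 225.93. Just outside the window, 7.95 kb past its right edge in replicate 1 and 6.72 kb past it in replicate 2, lay peaks with scores of 352.78 and 308.85. The protein-coding neighbours of Smad7 in the gene table are Dym and Ctif.

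**Figure D2:**
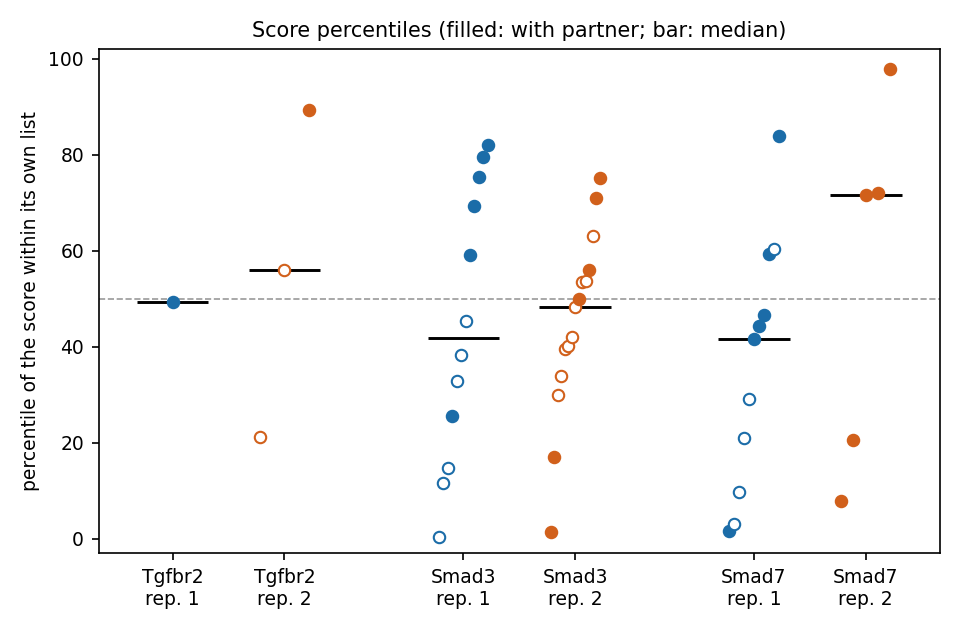
Percentile of each peak's score within its own list (y axis, 0 to 100) by locus and replicate, with 1 point for each peak, filled where it has a partner. Bars are medians, from 41.7 at Smad7 in replicate 1 to 71.6 at Smad7 in replicate 2, and the dashed line at 50 is the middle of a list. The open points of replicate 1 stay below 50, except for the Smad7 peak with a score of 513.63.

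Across the 3 loci, the replicates shared 12 of 34 regions, or 35.3%, against 31.7% in the whole series. Of the replicate 1 peaks, 13 of 24 or 54.2% had a partner (95% Wilson interval 35.1 to 72.1%), against 42.7% of all replicate 1 peaks. Of the replicate 2 peaks, 12 of 23 or 52.2% had a partner (33.0 to 70.8%), against 56% of all replicate 2 peaks. These shares are for an overlap of at least 1 bp. Stricter partner rules lowered the locus shares in both replicates, and the whole lists were not recomputed under them. The share of the whole list lies within the interval in each replicate, but this is no test of agreement. The intervals cover counting error over peaks only. They treat peaks as independent, although most peaks at these loci lie within 10 kb of another peak of their list.

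The median score was 369 over the 24 replicate 1 peaks, against 417 over the whole list, and 393 over the 23 replicate 2 peaks, against 394. None of the 24 replicate 1 peaks had a score of 1000 or more, against 15.9% of the list. In replicate 2, 2 of 23 did, against 14% of the list, and these were the strongest Smad7 site and the shared Tgfbr2 site. Peaks with a partner scored higher than those without at these loci, with medians of 502 and 263 in replicate 1 and 527 and 345 in replicate 2. The same order held in the whole lists, where the medians were 521 and 363 in replicate 1 and 510 and 314 in replicate 2. Widths were close to those of the lists, with a median of 560 bp in replicate 1, against 538 bp, and of 572 bp in replicate 2, against 613 bp.

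Which replicate had the higher score varied among the 13 partner pairs. Replicate 2 had the higher score in 8 of 13 pairs, against 49.8% of all 9223 pairs, and the median ratio of replicate 2 over replicate 1 was 1.36 (range 0.219 to 6.55), against 1.00. These ratios were not corrected for depth or background. The percentiles of partners differed by a median of 29.9 points at the loci (range 13.3 to 80.6), against 19.7 points over all pairs. Midpoints of the 13 pairs were a median of 90.0 bp apart, against 37.5 bp over all pairs. No test was made of these differences, and the 2 pairs of the strongest Smad7 site share a replicate 2 peak.

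**Figure D3:**
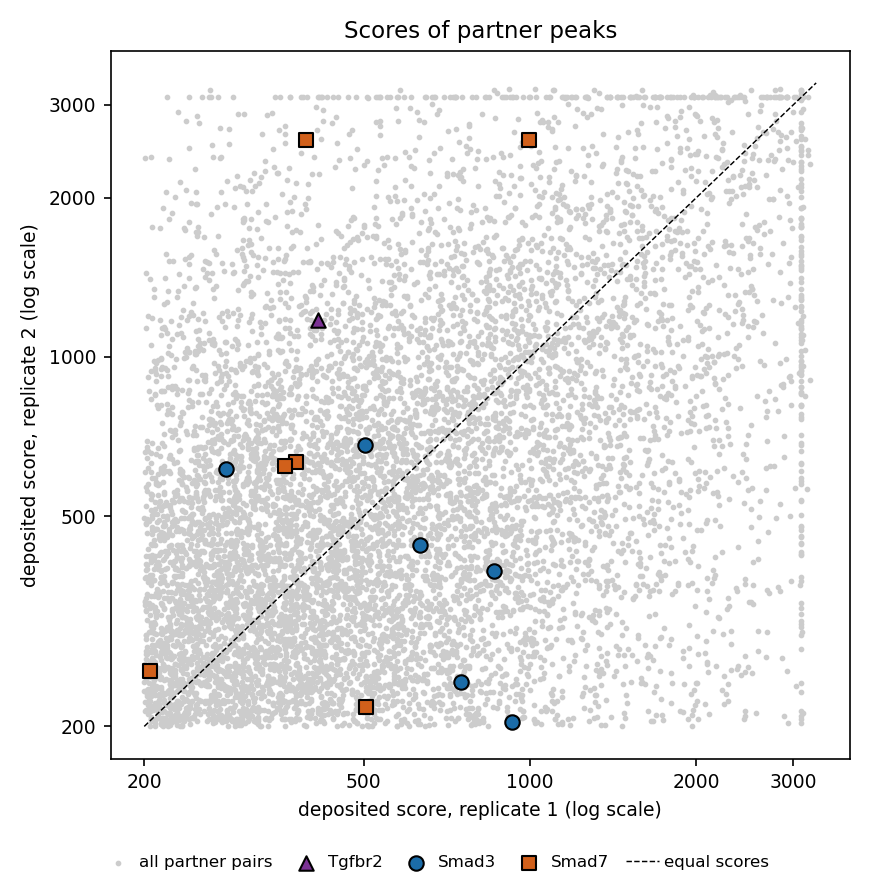
Deposited score of replicate 2 (y axis) against that of replicate 1 (x axis) for partner peaks, both on log scales, with all 9223 pairs in grey, the 13 pairs of the loci in colour and equal scores as a dashed line. At Smad3 4 of 6 pairs lie below the line, at Smad7 5 of 6 lie above it, and the Tgfbr2 pair lies above it.

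The loci differed in how densely peaks lay. The Smad7 window had 9.17 peaks per 100 kb in replicate 1 and 4.17 in replicate 2, or 6.67 ± 3.54 (SD, n = 2). The Smad3 window had 5.45 and 6.82, or 6.14 ± 0.964. The Tgfbr2 window had 0.5 and 1.5, or 1.00 ± 0.707. Over all assembled chromosomes the density was 0.810 in replicate 1 and 0.608 in replicate 2. Both SMAD windows were thus denser than the genome in each replicate, while Tgfbr2 was below it in replicate 1 and above it in replicate 2. Which of the SMAD windows was the denser changed between replicates.

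The stretches around the SMAD windows were also richer in peaks than the genome. In the 500 kb on each side of the Smad3 window there were 2.5 peaks per 100 kb in replicate 1 and 1.6 in replicate 2, and beside the Smad7 window there were 2.6 and 1.2. Beside the Tgfbr2 window there were 0.3 and 0.7. In each replicate all 3 windows exceeded their own surroundings, with 0.5 and 1.5 peaks per 100 kb inside the Tgfbr2 window. At Tgfbr2 in replicate 1 this rested on a single peak inside the window, against 3 peaks beside it. The windows were drawn with earlier results of these data known, so their density is no independent finding.

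For scale, the assembled chromosomes were divided into tiles of the length of each window. At least 12 peaks, the Smad3 number of replicate 1, occurred in 0.97% of 12057 tiles of 220 kb, and at least 15, the number of replicate 2, in 0.108%. At least 11 peaks, the Smad7 number of replicate 1, occurred in 0.176% of 22113 tiles of 120 kb, and at least 5, the number of replicate 2, in 3%. At Tgfbr2 at least 1 peak occurred in 47.3% of 13262 tiles of 200 kb in replicate 1 and at least 3 in 18.1% in replicate 2. Tiles at or above the window in both replicates made up 0.0912% for Smad3, 0.118% for Smad7 and 17.5% for Tgfbr2. Tiles also cover unsequenced and unmappable stretches, and over 50% of them held no peak in each replicate.

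**Figure D4:**
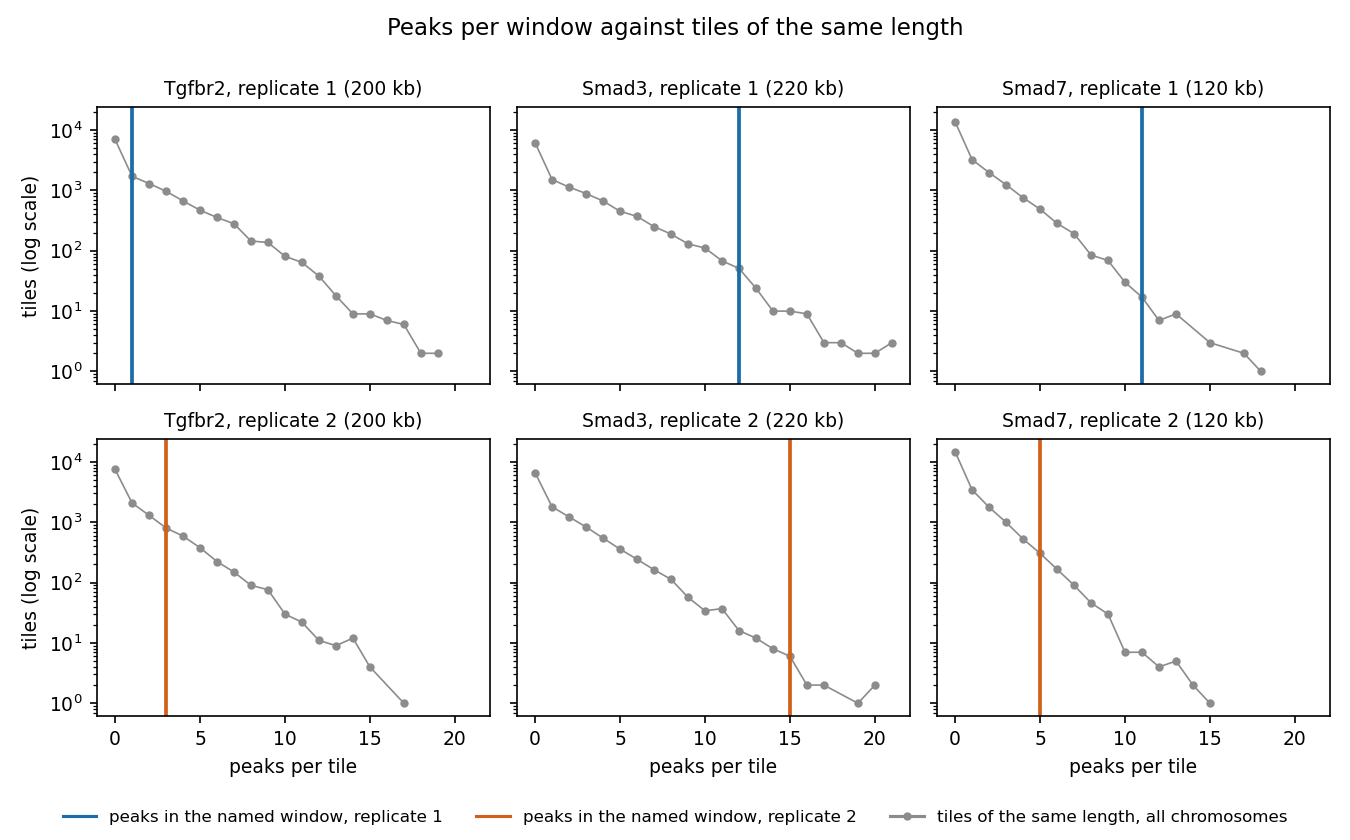
Number of tiles (y axis, log scale) by peaks per tile (x axis) for tiles of the length of each window over all assembled chromosomes, with replicate 1 above and replicate 2 below. Coloured lines mark the count in the named window. The Smad3 lines stand at 12 and 15 peaks, the Smad7 lines at 11 and 5, and the Tgfbr2 lines at 1 and 3, against largest tile counts of 21 and 20, 18 and 15, and 19 and 17 in replicates 1 and 2.

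Close neighbours were common at the loci. Another midpoint of the same list lay within 10 kb for 18 of 24 replicate 1 peaks, or 75%, against 47.2% of that list. In replicate 2 this held for 17 of 23, or 73.9%, against 42.9%. All of these were at Smad3 and Smad7, as no Tgfbr2 peak had such a neighbour in either replicate. Of the peaks without a partner, 9 of 11 in replicate 1 and 7 of 11 in replicate 2 had a midpoint of the other list within 10 kb, against 26.6% and 36.1% of all peaks without a partner. A count of neighbours rises with density, so these shares follow in part from the numbers of peaks in the windows.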

How the data were processed

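The deposited values were 2 peak lists, 1 for each NR6A1 replicate, with a start, an end and a score for every peak. The authors' score was read as a log-transformed p-value of MACS because of its range, just above 200 to 3219.64, with many peaks at exactly 3100. Bowtie 0.12.7, MACS and mm9 are named, without roles, in the submitters' processing notes. The control library, threshold and MACS version are not given in the sources used here. Starts are written with the first base as 1.

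The windows, gene list and measures were chosen with earlier results of these data known. Every peak of a window was counted. The partner pairs and the highest peak of each locus and replicate are given in full, and other peaks named were chosen after their values were seen. Partners overlapped by at least 1 bp, and partners were merged into regions. The overlap code was tested on simulated lists (Python 3.11.15, numpy 2.4.6, pandas 2.3.3, scipy 1.17.1). Chromosome lengths came from GenomeInfoDb 1.38.1. No mm9 annotation or sequence was at hand, so peaks were assigned to no exon, intron or promoter, and the pathway genes beyond the 3 loci were not searched for peaks. Promoter sequences, matched by symbol, and neighbouring genes are from RefSeq tables of GRCm38.p6. The alternatives were other partner rules, stronger or equal lists, other window rules and edges, other gaps and single lists.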

Additional observations from a re-analysis of the deposited data

How the results depend on the processing

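Of 124 recomputed values, 90 changed by no more than 1.5 times (counts) or by less than the SD between replicates (other values), and 34 moved further. An SD of 2 values is a wide limit where the replicates differ and a narrow one where they are close, so this tally is a rough guide. A change in Smad7 density from 6.67 to 10.0 peaks per 100 kb, with windows 20 kb narrower on each side, stayed within the limit. Restricting the lists to peaks above their median score (the upper 50%) left 5 and 6 peaks at Smad3, 3 and 3 at Smad7 and 0 in replicate 1 at Tgfbr2, with 2, 1 and 0 shared regions at Smad3, Smad7 and Tgfbr2, and 2.5 peaks per 100 kb at each of Smad3 and Smad7. The shares with a partner in replicates 1 and 2 then were 37.5% and 27.3%, and the median scores 692 and 614. A 50% reciprocal overlap gave shares of 41.7% and 43.5% and left 3 shared regions at Smad7, and midpoints within 100 bp gave 29.2% and 30.4% and left 2. Equal list sizes gave 70.6% and 47.8%, with 7 Smad7 peaks and a median score of 412 in replicate 1. Moving each window edge inward by 20 kb gave shares of 52.2% and 61.1% and a median score of 429 in replicate 2. Moving each edge outward by 20 kb gave shares of 50% and 48%. Shares of the whole lists were not computed under the changed partner rules or lists, so those locus shares have no background beside them. The upper quartile of midpoint distances was 76.5 bp over all pairs and 241 bp over the locus pairs. The 100 bp rule thus removed a larger part of the locus pairs than of all pairs. With gaps of at most 5 kb there were 9 groups at Smad3 and 5 at Smad7. Single lists held 1 to 3 peaks at Tgfbr2, 12 to 15 at Smad3 and 5 to 11 at Smad7. The merged regions of both lists numbered 3, 21 and 10. Peaks and regions are unlike counts, since more than 1 peak of a list can fall on 1 region. Beyond the construction of each alternative, causes were not tested. No paired analysis was possible because no vector list was used. Without reads per peak, a site absent from a list may have been just below the threshold, which was not tested.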
